A study of Mus musculus with 4 samples.

Results

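The mitochondrial carrier family was followed on 4 arrays of whole mouse small intestine, 2 from HNF4 null animals and 2 from controls. Members were all probe sets annotated to a single gene whose symbol starts with Slc25a, or to Ucp2 or Ucp3, apart from Slc25a20. This gave 65 probe sets for 33 genes, out of 12393 genes named on the array. Where a gene had several probe sets, the one brightest on average stands for it. A reference gene table listed 48 genes of the same names, of which 15 were not analysed here, Ucp2 and the citrate carrier Slc25a1 among them.

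All animals were 1 month old, and every one carried an HNF4 allele flanked by loxP sites. Both null animals, 1 male and 1 female, had the genotype HNF4 loxP/- with villin cre, in which the villin promoter drives Cre in intestinal epithelium. The control female was HNF4 loxP/+ with villin cre. The control male was HNF4 loxP/- with no Cre, so its alleles at the locus were those of the null animals. Each mouse gave 1 array. With 1 animal of each sex in each group, and controls of different genotype, sex and control genotype cannot be told apart.

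Mitochondrial carriers are a large family of related transport proteins, nearly all in the inner mitochondrial membrane. They exchange metabolites, nucleotides and cofactors between the cytosol and the matrix, and so link respiration to synthesis in the rest of the cell. In the absorptive epithelium of the small intestine they serve ATP export, the citrulline and arginine pathway, redox shuttles and the use of glutamine. HNF4 is a nuclear receptor of liver and gut epithelium with many metabolic target genes.

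Median deposited intensities were 43.2 to 53.3 per array, and the null male stood apart, with the dimmest array and 2.46% of its values negative, against 1.42% to 1.6% elsewhere. No detection calls come with the values. The labels write HNF4 without naming Hnf4a or Hnf4g, and do not say which exon was removed. Neither gene's level therefore checks the genotypes. The brightest Hnf4a probe set read 1136 and 1025 in the null male and female and 1141 and 731 in the control female and male. That of Hnf4g read 327 and 445 against 404 and 310 in the same order, and the groups overlapped for both genes. Summed intensities of 8 epithelial markers were 14637 in the null male and 12393 in the null female, below the control female (16826) and the control male (15429.5). Of these 8, 7 were lower in the null animals, with a median log2 difference of −0.16. The sum over 10 smooth muscle markers was 3909 in the null female and 2714 to 2838.5 on the other 3 arrays, and all 10 had a higher mean in the null animals. The median difference of these markers was −0.22 between the males and 0.71 between the females, and that of the epithelial markers −0.039 and −0.32. The leukocyte sum over 9 markers was 3669 and 3879 in the null animals and 4279 and 4133 in the controls, with 4 of the 9 higher. Lyz2 made up most of it, at 2795 and 2575 in the null male and female and 2884 and 3299 in the control female and male. Ptprc overlapped, at 184 and 416 against 440 and 205 in the same order. The pancreatic acinar sum over 5 was 928 in the null male and 559 to 646 elsewhere. Fat markers summed to 227 and 253 in the null male and female, against 176 and 216 in the control female and male. Skeletal muscle markers summed to 241.5 and 246 against 185 and 162 in the same order. All 5 fat and 3 of 4 skeletal muscle markers had a higher mean in the null animals. The fat cell hormone Adipoq was below 20 on every array. Summed intensities of 6 proliferation markers overlapped between the groups, at 1502 to 1786. Of the 6, 4 had a higher mean in the null animals, while Mki67 (−0.25 in log2) and Mcm5 (−0.21) were lower. Pcna (0.12) and Cdk1 (0.28) were higher without overlap after normalization, as were 14.4% of all genes tested. In whole tissue, fewer cells of a type cannot be told apart from less RNA per cell, and the part of tissue makeup in the carrier values below was not tested.

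No carrier gene passed the test. Of 33 genes, 30 were bright enough to be tested in limma, and 0 had an adjusted p under 0.05, against 0.0126% of all probe sets tested (2 of 15838; 3.03% had an unadjusted p under 0.05). At an unadjusted p under 0.05 in limma, 2 of the 30 were lower, Slc25a10 and Slc25a13 (6.67%, where 1.75% of all genes tested were lower at that level), and 0 were higher (1.46% of all genes). The median null minus control difference over the 30 was −0.07 on the scale of log2(normalized intensity + 16), beside 0.0014 over all 9546 genes tested, and 17 of the 30 were below 0 (56.7%, beside 49.7% of all genes tested). That median had no stable sign: it was 0.0040 without the null male, 0.030 without the control male, −0.014 without the control female and −0.093 without the null female. Taken by sex, it was −0.12 between the 2 males (the male pair) and −0.067 between the 2 females (the female pair). All differences below are on this log2 scale, which understates those of dim probe sets. Each carrier's difference over all 4 arrays has an adjusted p of 0.9998 in the main limma fit, which has no sex block. Where intensities are given as a pair against a pair, the order is null male and null female, then control female and control male.

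**Figure D1:**
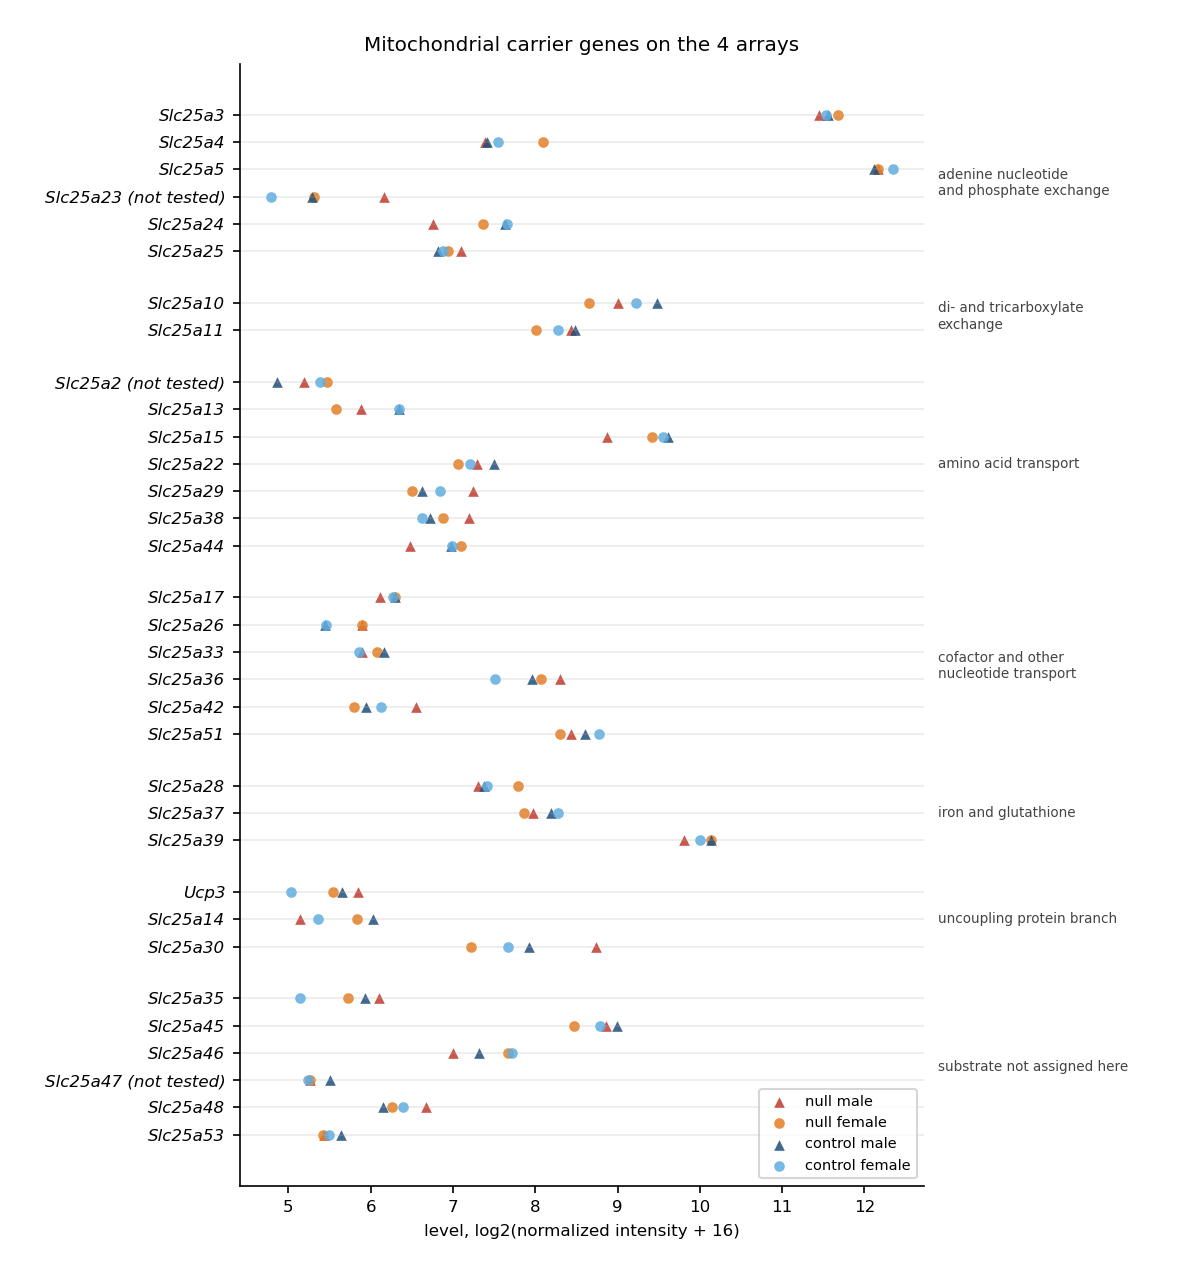
Level of the 33 carrier genes on each array, as log2 of normalized intensity plus 16, 1 probe set per gene, grouped by transported substrate. Triangles are males and circles females; red and orange are null animals, dark and light blue controls. Levels of different genes are not comparable, since each probe set has its own brightness. Slc25a13 shows both null animals (5.73 ± 0.22, SD, n = 2) left of both controls (6.34 ± 0.0036, SD, n = 2), and the 4 values of Slc25a3 lie close together.

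Normalized values in the null animals did not overlap those of the controls for 7 of the 30 genes in the lower direction (23.3%, beside 15.2% of all genes tested) and for 4 in the higher direction (13.3%, beside 14.4%). Such genes have the same sign in both sex pairs by construction. Requiring in addition a difference of at least 0.3 left 6 lower genes (20% of the 30, beside 7.53%) and 3 higher genes (10%, beside 6.77%). The 6 were Slc25a10, Slc25a13, Slc25a15, Slc25a24, Slc25a37 and Slc25a51, and the 3 were Slc25a26, Slc25a36 and Slc25a38. The other genes without overlap were Slc25a53 (lower) and Slc25a25 (higher). None of these shares was tested against that of all genes.

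Slc25a10, the dicarboxylate carrier, exchanges malate and succinate for phosphate. Its intensity as deposited was 482 and 392.5 in the null male and female, against 596 in the control female and 696 in the control male. Both null animals lay below both controls, in either sex. The difference was −0.53 (SE 0.20, 95% interval −0.998 to −0.055), or 1.44-fold, with an unadjusted p of 0.0337 and an adjusted p of 0.9998 in limma. A second, dimmer probe set read 108 and 111 in the 2 null mice and 125 and 181 in the controls, a difference of −0.37 (SE 0.25). The other carrier of this class, the oxoglutarate carrier Slc25a11 of the malate-aspartate shuttle, read 308 and 253 against 302 and 342, so its groups overlapped, at −0.16 (SE 0.22).

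Slc25a13, known as citrin, is the aspartate/glutamate carrier that supplies aspartate to the cytosol for the malate-aspartate shuttle and the urea cycle enzymes. It read 37.7 and 35.0 in the null male and female, and 66.8 and 65.4 in the control female and male. The 2 controls were nearly equal and both null animals lay below them. At −0.61 (SE 0.24, 95% interval −1.18 to −0.043) it had the lowest difference among the 30 genes, 1.53-fold, with an unadjusted p of 0.0387 in limma. It is dim: the difference was −0.80 with a pseudocount of 1 and −0.35 with 64.

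Slc25a10 and Slc25a13 were the members with an unadjusted p under 0.05, so their promoter windows are shown, from RefSeq on build GRCm38.p6. Each window runs from 250 bases before to 50 bases after the annotated start, written along the gene's strand. Capitals mark the CCAAT box (CCAAT) and the GC box (GGGCGG), each read on both strands.
Slc25a10, chr11:120491587-120491886, plus strand: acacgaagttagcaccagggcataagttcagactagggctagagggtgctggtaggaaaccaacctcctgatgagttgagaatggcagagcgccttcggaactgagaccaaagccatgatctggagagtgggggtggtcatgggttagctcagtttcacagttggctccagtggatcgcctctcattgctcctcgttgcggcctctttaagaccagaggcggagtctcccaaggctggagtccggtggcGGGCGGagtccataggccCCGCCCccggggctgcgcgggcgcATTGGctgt
Slc25a13, chr6:6217124-6217423, minus strand: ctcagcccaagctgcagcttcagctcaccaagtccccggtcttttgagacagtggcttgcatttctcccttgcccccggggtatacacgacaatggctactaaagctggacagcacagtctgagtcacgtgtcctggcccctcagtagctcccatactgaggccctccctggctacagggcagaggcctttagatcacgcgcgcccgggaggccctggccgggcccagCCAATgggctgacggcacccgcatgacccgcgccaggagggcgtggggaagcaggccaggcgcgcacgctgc

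In the Slc25a10 window the GC boxes begin 1 base before and 18 bases after the start and the CCAAT box 42 bases after it. In that of Slc25a13 a CCAAT box begins 22 bases before the start. Windows were given for 26 of the 33 carrier genes. A GC box was present in at least 1 window of 23 of the 26 genes, beside 38.2% of all 27025 genes with a window, and a CCAAT box in 16, beside 41.1%. The carrier windows had a median of 59.7% G and C, against 52.7% over all windows, and the GC box consists of G and C alone. The HNF4 core CAAAGTCCA, and the form CAAAGNCCA that contains it, matched no carrier window on either strand, beside 0.555% and 2.28% of all genes. The ERR motif TCAAGGTCA also had 0 matches (0.466% of all genes), and the NRF1 motif in the form of GCGC, A, any base, GCGC had 1, in the Slc25a3 window (5.19%). Absence says only that these letters are not in these windows.

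Slc25a15, the ornithine carrier that links the mitochondrial and cytosolic steps of citrulline and arginine synthesis, read 436 and 662 in the null male and female, against 758 and 768 in the control female and male. The controls lay close together, the null male far below them and the null female just below. The difference was −0.44 (SE 0.21, 95% interval −0.95 to 0.064), with −0.75 between males and −0.14 between females, and it was −0.17 without the null male and −0.72 without the null female. Its second probe set gave 190.7 and 209 against 262 and 238, at −0.25 (SE 0.19).

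Other amino acid carriers did not follow 1 direction. Slc25a38, which brings glycine into the matrix for heme synthesis, read 119 and 108 in the 2 null mice and 84.1 and 90.7 in the controls, above them in both sexes, at 0.36 (SE 0.23), and at 0.20 without the null male. The glutamate carrier Slc25a22 read 128 and 125 against 134 and 165, with overlap after normalization and a difference of −0.18 (SE 0.22). Slc25a44, a carrier of branched-chain amino acids, overlapped between the groups, with a difference of −0.19 (SE 0.27) on its brightest probe set. There it was lowest in the null male, at 65.5 against 111 to 129 on the other arrays. Its other tested probe sets gave 0.069 and −0.17. On the last of these the null male was the highest, at 51.6 against 23.2 to 43.5. Slc25a29, a carrier of basic amino acids, had differences of 0.62 and −0.33 between males and between females. Slc25a2, an ornithine carrier paralogue, was too dim to be tested, at 13.4 to 31.3. Over the 6 amino acid carriers tested, 4 were lower and 2 higher, with a median of −0.18.

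**Figure D2:**
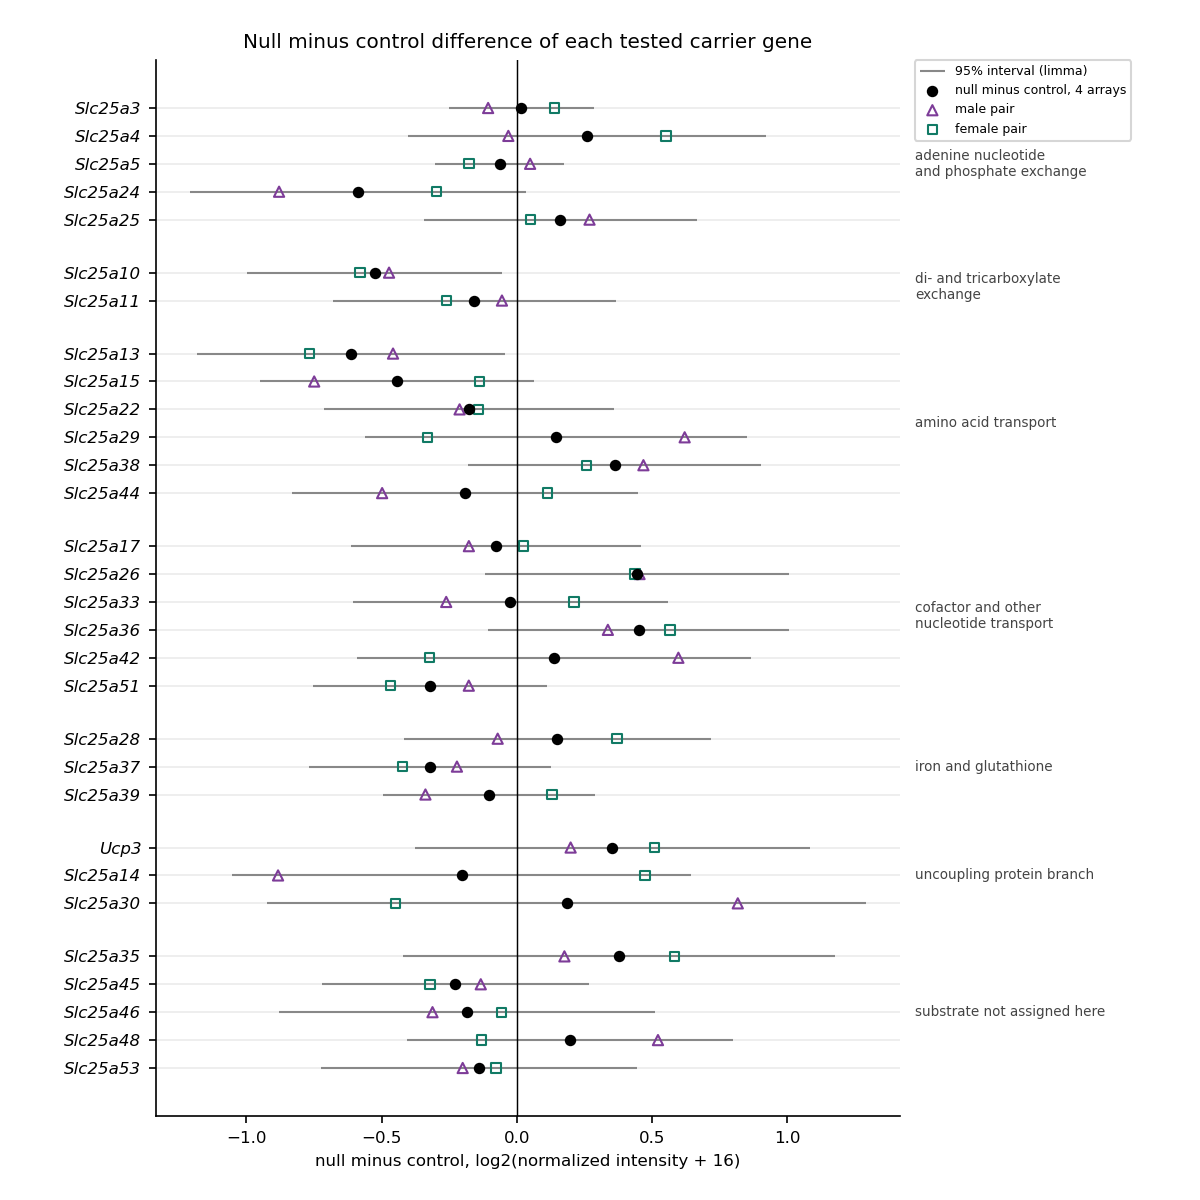
Null minus control difference of the 30 tested carrier genes on the log2(normalized intensity + 16) scale. Black points are the difference over 4 arrays with its 95% interval from limma, purple triangles the male pair and green squares the female pair. The intervals of Slc25a10 (−0.998 to −0.055) and Slc25a13 (−1.18 to −0.043) lie below 0, and those of the other 28 genes include 0.

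The major carriers of ATP synthesis and export had differences close to 0. Slc25a5, the adenine nucleotide translocase of many dividing and epithelial tissues, read 4744 and 4469 in the null male and female and 5018 and 4401 in the control female and male. The groups overlapped, with a difference of −0.064 (SE 0.10, 95% interval −0.30 to 0.18). Slc25a3, the phosphate carrier, read 2834 and 3125 in the 2 null mice and 2969.5 and 3031 in the controls, at 0.017 (SE 0.11, 95% interval −0.25 to 0.28). The sign of either is not settled, as Slc25a3 was at −0.012 without normalization and Slc25a5 at 0.010 with arrays shifted to a common median.

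Slc25a4, the translocase isoform that predominates in heart and skeletal muscle, varied between its probe sets. The brightest read 268 in the null female and 138 in the null male, against 177 and 155 in the controls, so that the null male was the lowest of the 4 arrays. The difference of 0.26 (SE 0.28) became −0.097 without the null female. That array also had the highest sums of smooth muscle, skeletal muscle and fat markers, and a link to these was not tested. The 4 tested probe sets of Slc25a4 disagreed, from −0.10 to 0.42. On 2 of the 4, at 0.42 and 0.38, both null animals lay above both controls after normalization. On the probe set at 0.42 the deposited value of the null male, 123, was below that of the control female, 136. The null female was the highest array on all 4.

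The calcium-regulated ATP-Mg/phosphate carriers split. Slc25a24 read 82.4 in the null male and 158 in the null female, against 190.9 and 182 in the control female and male. Both null animals were below the 2 similar controls, the null male by more. The difference was −0.59 (SE 0.26, 95% interval −1.21 to 0.034), with −0.28 without the null male and −0.90 without the null female. Slc25a25, its relative, read 109 and 113 against 105 and 98.3, a small difference in the other direction of 0.16 (SE 0.21). The third relative, Slc25a23, was too dim to be tested, at 49.0 and 26.7 in the null animals and 12.1 and 23.6 in the controls.

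Carriers of cofactors and of other nucleotides held 2 of the 3 higher genes. Slc25a36, a pyrimidine nucleotide carrier, read 278.5 and 262 in the null male and female, against 171 in the control female and 234 in the control male. Both null animals were above both controls, and the difference was 0.45 (SE 0.23, 95% interval −0.11 to 1.008). It was 0.22 without the control female and 0.68 without the control male. Its second probe set gave 0.41 (SE 0.27). Slc25a26 carries S-adenosylmethionine, the methyl donor, into the matrix. It read 38.1 and 47.3 in the 2 null mice and 28.6 and 27.8 in the controls, at 0.45 (SE 0.23), with 0.45 between males and 0.44 between females. It is dim, and the difference was 0.63 with a pseudocount of 1 and 0.23 with 64. Its probe set is of a kind that can match more than 1 transcript, and its other one was too dim to be tested, at 30.03 and 35.5 against 12.97 and 16.6.

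Slc25a51, which carries NAD into mitochondria, stood at 310 and 311 in both null mice, and at 432 in the control female and 375 in the control male. The null values were nearly equal and lay below both controls. The difference was −0.32 (SE 0.18, 95% interval −0.75 to 0.11), and its other tested probe sets gave −0.41 and −0.079. The remaining 3 of this class overlapped between the groups, namely the other pyrimidine nucleotide carrier Slc25a33 at −0.025, the peroxisomal carrier Slc25a17 at −0.076 and the coenzyme A carrier Slc25a42 at 0.14.

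Among the iron and glutathione carriers, Slc25a37, mitoferrin 1, which imports iron for heme and iron-sulfur clusters, read 218 and 227 in the 2 null mice and 303 and 276.8 in the controls. Both null animals lay below both controls, at −0.32 (SE 0.19, 95% interval −0.77 to 0.13). Its paralogue Slc25a28, mitoferrin 2, read 130 and 215 against 160 and 150, with no separation of the groups, at 0.15 (SE 0.24). Slc25a39, a mitochondrial glutathione transporter, read 868 and 1094 against 1008 and 1132, at −0.10 (SE 0.16). That probe set is of a kind whose probes can match related sequences. Its other tested probe sets gave 0.12 and −0.13, and the groups overlapped on each.

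In the uncoupling protein branch no gene kept its groups apart. Ucp3, which is best known from skeletal muscle and brown fat, was dim at 36.4 and 33.8 in the null animals and 17.2 and 34.5 in the controls, with a difference of 0.35 (SE 0.30). Slc25a30 was highest in the null male, at 394, and lowest in the null female, at 141, with the controls between them at 192 and 226. Slc25a14 was lowest in the null male, at 15.6, against 25.6 to 49.5 elsewhere. For Slc25a30 the other tested probe set gave −0.13 where the brighter one gave 0.18, and on it the null male was lowest, at 25.1 against 40.6 to 56.1.

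The remaining members are grouped here without an assigned substrate. Slc25a45 read 435 and 346 against 438 and 494, at −0.23 (SE 0.21). Slc25a46, an outer membrane protein that acts in mitochondrial fission, was at −0.18 and −0.41 on its 2 probe sets, lowest in the null male on both. Slc25a35 at 0.38, Slc25a48 at 0.20 and Slc25a53 at −0.14 had standard errors of 0.33, 0.25 and 0.24. Slc25a47 was too dim to be tested, at 18.3 to 29.8.

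**Figure D3:**
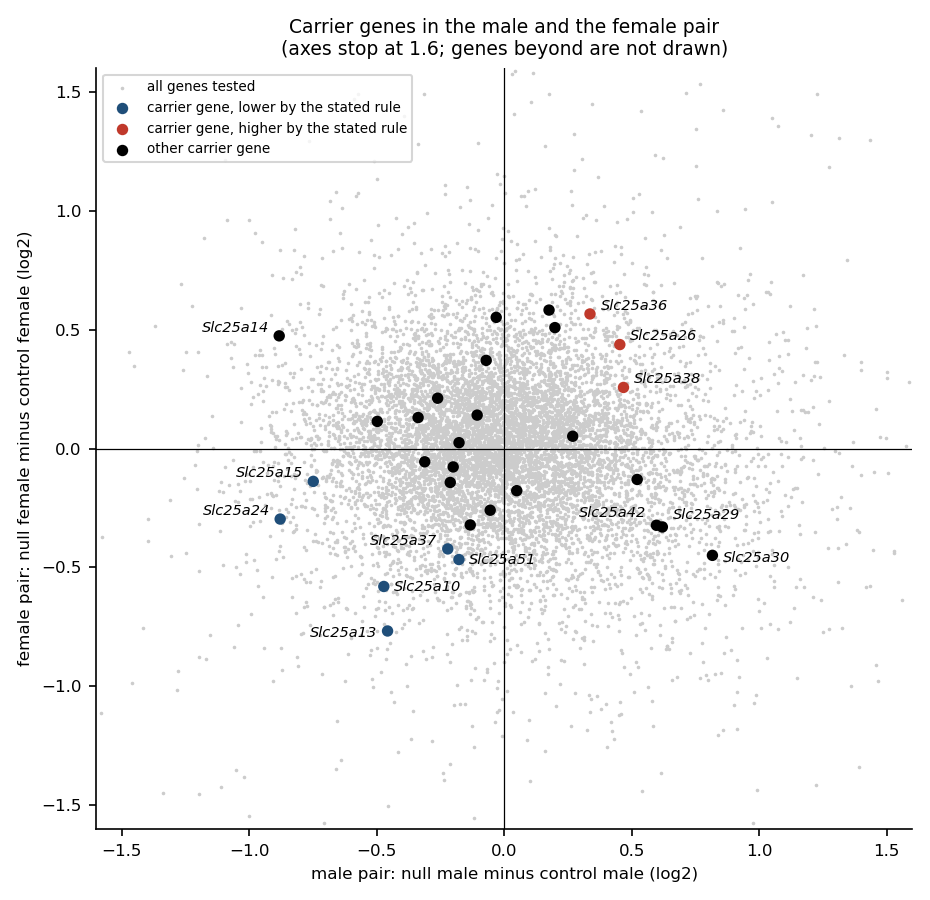
Difference in the male pair (horizontal) against that in the female pair (vertical), each null minus control, in log2 units, for all genes tested (grey) and the 30 carriers. Blue genes were lower and red genes higher in the null animals without overlap and with a difference of at least 0.3. That choice places the 6 blue genes at lower left and the 3 red genes at upper right, while Slc25a14, Slc25a29, Slc25a30 and Slc25a42 lie where the pairs have opposite signs.

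Over the 30 genes, 11 were lower in both pairs (36.7%, beside 24.2% of all genes tested), 6 were higher in both (20%, beside 24%) and 13 had opposite signs, 4 of them by at least 0.3 in each pair (13.3%, beside 9.1%). When each array was left out in turn, 16 of the 30 carriers changed sign at least once. None of the 11 genes without overlap did so. Their gap largely fixed this in advance, although each run normalized the arrays it kept anew.

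Several genes had more than 1 probe set, which gives a further reading of the same RNA. Of 11 genes with more than 1 tested probe set, 5 had differences of 1 sign, namely Slc25a10, Slc25a15, Slc25a46 and Slc25a51, all below 0, and Slc25a36, above 0. The other 6, Slc25a4, Slc25a5, Slc25a29, Slc25a30, Slc25a39 and Slc25a44, had both signs. Slc25a5 had 8 tested probe sets with differences from −0.29 to 0.073. Of these, 6 have names ending in x, a kind whose probes can match related sequences, and Slc25a5 pseudogenes are listed in the gene table used here. Whether such matches play a part in the spread was not tested. The lowest of the 8 read 1326 and 1459.5 in the 2 null mice and 1777 and 1729.8 in the controls. The 3 brightest others with such names lay between −0.058 and 0.073, and the dimmer ones were at −0.12 and −0.095. In all, 6 of the 8 probe sets were below 0.

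**Figure D4:**
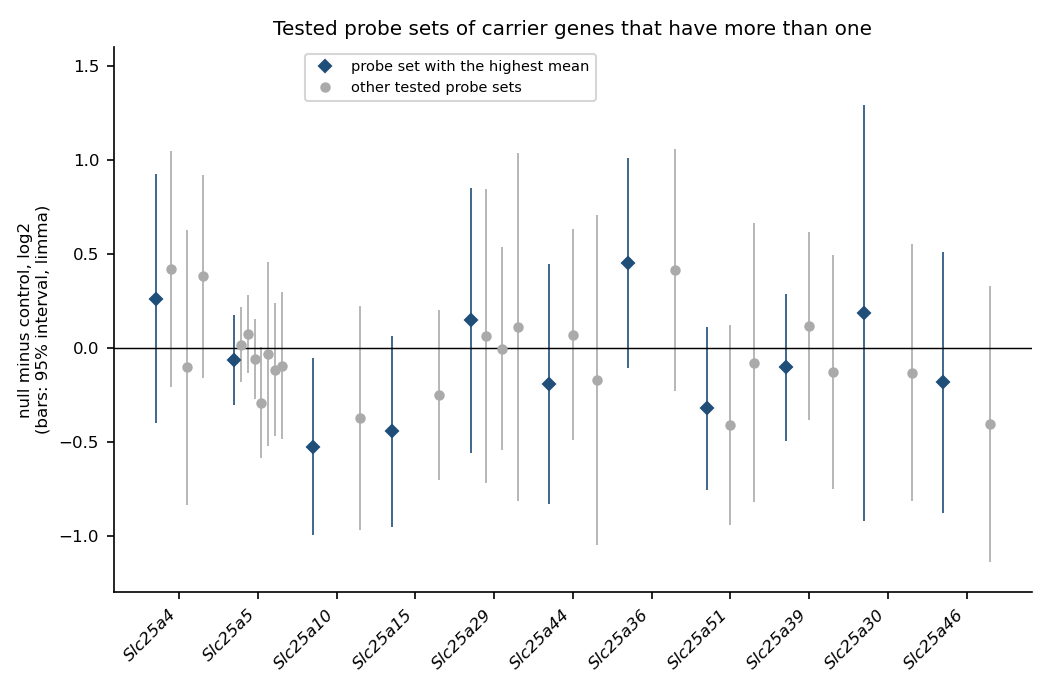
Null minus control difference of every tested probe set for the 11 carrier genes that have more than 1, on the log2(normalized intensity + 16) scale, with 95% intervals from limma. Blue diamonds are the probe set with the highest mean, grey circles the others. Slc25a10, Slc25a15, Slc25a46 and Slc25a51 stay below 0 and Slc25a36 above 0 on all of theirs, and Slc25a4 has probe sets on either side.

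Genes that work with the carriers were read from lists, and none of their members passed the test in limma. Their counts below 0 stand beside 49.7% of all genes tested, and none was tested as a list. In the shuttle list of 7 genes, 6 were below 0 with a median of −0.14, of which Mdh1 at −0.0030 and Got2 at −0.0088 lay close to 0. The median of the list was −0.0019 between males and −0.031 between females. In it, 1 gene had an unadjusted p under 0.05 in limma: Gpd1, the cytosolic glycerol-3-phosphate dehydrogenase, at −0.46. Its mitochondrial partner Gpd2 was at 0.29, and Mdh2 at −0.14. For citrate export and use, 3 of 4 were below 0 (median −0.13), with the cytosolic malic enzyme Me1 at −0.63 and an unadjusted p of 0.0218 in limma, the fatty acid synthase Fasn at −0.16 and the citrate synthase Cs at −0.10. In the list for the urea cycle and ornithine use, 5 of 6 were below 0 (median −0.20), with Otc at −0.31, Cps1 at −0.18 and Arg2 at −0.40. Heme and iron-sulfur synthesis had 2 of 5 below 0 (median 0.040, but −0.14 between males and 0.22 between females), with the cysteine desulfurase Nfs1 at 0.38, Cpox of heme synthesis at 0.23 and Alas1, which starts heme synthesis, at −0.11.

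The list for protein import into mitochondria, not only of carriers, had 9 of 16 genes below 0. Its median was −0.053, but −0.25 between males and 0.078 between females. In it the small chaperones Timm9 and Timm8a1 were at −0.44 and −0.39 and the outer membrane pore Tomm40 at −0.25. A list of other mitochondrial membrane proteins, outside the symbol rule for members, had 7 of 10 below 0 (median −0.072). In it Mtch2 was at −0.29, Letm1 at −0.28 and Sfxn3 at 0.29. Genes of mitochondrial content had 8 of 12 below 0 (median −0.055, but −0.094 between males and 0.044 between females), with the chaperone Hspa9 at −0.27 and the transcription factors Gabpa at −0.39 and Nrf1 at 0.39. No gene of these last 3 lists had an unadjusted p under 0.05 in limma. The carnitine carrier Slc25a20, left out of the members and described with fatty acid oxidation, read 219.5 and 253 in the 2 null mice and 401 and 333 in the control female and male, at −0.56. Its groups did not overlap either. Ucp1, the uncoupling protein of brown fat, was at most 29.1 on any array and was not tested.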

How the data were processed

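Total RNA of whole small intestine, isolated with a Qiagen RNeasy kit, was hybridised to Affymetrix arrays, per the labels. The deposited table holds 1 linear intensity per probe set and array; how it was scaled, and by which software, is not stated in the labels used here. The 64 control probe sets were left out, which left 22626. After quantile normalization, negative values became 0, 16 was added and log2 taken, and the dimmest 30% of probe sets were dropped, leaving 15838 (9546 genes). Null and control were compared in limma 3.58.1 (R 4.3.3), lmFit and eBayes with an intensity trend, two-sided. P-values were adjusted by Benjamini-Hochberg across the 15838 probe sets at a threshold of 0.05. The fit was tested on simulated data with added log2 differences of 3 and 1.5. Of 100 each, 100 and 83 were recovered, with 8 false calls. All carrier differences were smaller than those simulated, so that test does not bear on them. Residual degrees of freedom were 2 and prior ones 4.65, and the 4 arrays limit the precision of the fit. Names came from the platform annotation; all 33 members matched by Entrez identifier. Members chosen for a fuller account are those without overlap between groups, of the same sign in both sex pairs and a difference of at least 0.3, the 5 brightest, and those whose probe sets disagree in sign by at least 0.5; others are given more briefly. Alternatives changed normalization, pseudocount (1, 64), filter (none, 50%), trend, sex as a block, the arrays kept and the probe set rule. Members and lists were chosen with earlier results of these data known.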

Additional observations from a re-analysis of the deposited data

Results flagged for a closer look

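For 4 carriers the male and the female pair moved in opposite directions by at least 0.3 on the log2 scale, where 9.1% of all genes tested did so and 13.3% of the 30 carriers. Slc25a14 differed by −0.88 between males and 0.47 between females, Slc25a29 by 0.62 and −0.33, Slc25a30 by 0.82 and −0.45, and Slc25a42 by 0.60 and −0.32. With 1 animal of each sex in each group, the difference between the pairs was not tested. The null male was the highest of the 4 arrays for Slc25a29, Slc25a30 and Slc25a42 and the lowest for Slc25a14, on the brightest probe set of each. On the other tested probe set of Slc25a30 the null male was the lowest, with −0.30 between males and 0.038 between females.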

How the results depend on the processing

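No carrier gene passed the threshold under any alternative run in limma: the smallest adjusted p of a member was 0.184, for Slc25a24 and Slc25a30 without the null female, where the null group is 1 array, taken to vary like the controls, and none was called with sex as a block, where 29 of all probe sets passed. Over all probe sets, 1 passed without an intensity trend in the prior, and the count was 0 to 35 when each array was left out in turn; the cause was not tested. The median over the carriers was −0.093 to 0.030 when each array was left out in turn, and it stayed below 0 and within 0.035 (1 SD of the array medians between replicates) of the main value under every other alternative. Without probe sets whose names end in x or s, an alternative chosen after seeing the data, it was −0.076. Slc25a3 turned to −0.012 without normalization and Slc25a5 to 0.010 with arrays shifted to a common median, and no other carrier changed sign outside the runs that leave out an array. The ranges of the carriers whose sign changed in those runs were Slc25a11 −0.36 to 0.053, Slc25a14 −0.56 to 0.14, Slc25a17 −0.17 to 0.017, Slc25a28 −0.093 to 0.39, Slc25a29 −0.22 to 0.51, Slc25a3 −0.097 to 0.13, Slc25a30 −0.58 to 0.96, Slc25a33 −0.17 to 0.13, Slc25a35 −0.014 to 0.77, Slc25a39 −0.27 to 0.060, Slc25a4 −0.097 to 0.61, Slc25a42 −0.24 to 0.51, Slc25a44 −0.50 to 0.12, Slc25a46 −0.52 to 0.15, Slc25a48 −0.0089 to 0.40 and Slc25a5 −0.16 to 0.051. The fit with sex as a block pairs the male with the male and the female with the female, and the labels hold no shared replicate numbers. In that limma fit 4 of the 30 carriers had an unadjusted p under 0.05, beside 510 of all 9546 genes tested. The smallest adjusted p of a carrier there was 0.592, for Slc25a10. The deposited values carry no background estimate, so how far dim carriers lie above it is unknown.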
